A study of Mus musculus with 18 samples.

Results

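The genotype by Cre interaction was examined across all genes in all 18 libraries of the study: it asks, gene by gene, whether the difference between mice with and without the P278KY change in Gars was another one in immunoprecipitates that held tagged ribosomes than in those that held none. Libraries were assigned by their genotype label to 4 groups, all of spinal cord from mice aged 8 weeks on a mixed B6;CASTxB6.129 background. Cre P278KY mice (n = 3) were Rpl+/-;Chat+/-;P278KY+/-, and Cre WT mice (n = 4) were Rpl+/-;Chat+/-;P278KY+/+. NoCre P278KY mice (n = 6) were Rpl+/-;Chat+/+;P278KY+/-, and NoCre WT mice (n = 5) were Rpl+/-;Chat+/+;P278KY+/+. Every mouse, controls included, thus carried 1 copy of the taggable Rpl22 allele. The Gars change is inherited and does not depend on Cre, so that every cell of the P278KY mice carried it. Of 38924 genes listed, 17133 passed the filter on low counts and were tested.

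In the RiboTag method, Cre recombinase switches the ribosomal protein Rpl22 to a form with a haemagglutinin tag, and an antibody to the tag brings down ribosomes with the mRNA on them. Cre was expressed from Chat, the gene of the enzyme that makes acetylcholine, which in the spinal cord marks motor neurons and some interneurons. Without Cre no ribosome is tagged, and what is brought down is unspecific background from all cells of the tissue. Gars encodes glycyl-tRNA synthetase, and dominant changes in it cause a peripheral motor neuropathy. Uncharged tRNA or stalled ribosomes can activate the integrated stress response, in which phosphorylation of eIF2alpha lowers general translation and raises that of ATF4, a transcription factor of genes for amino acid synthesis and uptake.

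In the text, the genotype difference is the log2 fold change of P278KY over WT, the Cre arm is that difference in the 7 Cre libraries, the NoCre arm is that in the 11 NoCre libraries, and the interaction is the Cre arm minus the NoCre arm. Levels are CPM, counts per 1000000 after TMM scaling. A gene is called when its adjusted p in edgeR's quasi-likelihood test of 1 fit to all 18 libraries was below 0.05. Total counts per library were 8177817 to 24028695. The labelled cells were checked by their markers: all 21 measured genes of cholinergic motor neurons were higher in Cre than in NoCre libraries as a mean of both genotypes, against 34% of all genes tested, and all 14 microglia genes were lower, against 39.4%. The share of counts on mitochondrial ribosomal RNA was 1.36% to 4.88% over the 7 Cre libraries and 24.2% to 53.8% over the 11 NoCre libraries. Sequencing pools were inferred from the index sequences and sample numbers in the labels. By this inference, 10 libraries formed a first pool with members of all 4 groups and 8 formed a second pool without Cre P278KY. Both Cre WT libraries of pool 2, replicates 3 and 4, differed from replicates 1 and 2 in many genes. Xist exceeded 10 CPM in 2 of 3 Cre P278KY and 2 of 4 Cre WT mice, in all 6 NoCre mice of pool 2 and in none of the 5 of pool 1, and both such Cre WT mice were those of pool 2. In NoCre and Cre WT mice, sex and pool thus cannot be told apart, and the Cre arm within pool 1, or without Cre WT replicates 3 and 4, sets 3 Cre P278KY mice, 2 of them above that level of Xist, against 2 Cre WT mice below it.

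The interaction was called for 112 genes, 0.654% of those tested. It was positive for 59 (0.344%) and negative for 53 (0.309%). Nearly all of the difference lay in the Cre arm: 57 of the 59 genes with a positive interaction were also called higher in Cre P278KY than in Cre WT, and 51 of the 53 with a negative one were called lower. The NoCre arm was called for none of the 112 by edgeR, and its median absolute size over them was 0.25, against 2.16 in the Cre arm. Over all genes the Cre arm was called for 407 (2.38%), of which 176 were higher (1.03%) and 231 lower (1.35%), and the NoCre arm for 4 (0.0233%). Of the 407, 299 were not called in the interaction, although 406 had an interaction of the same sign as the Cre arm. The median standard error was 0.40 for the Cre arm, 0.33 for the NoCre arm and 0.52 for the interaction. Of the 17133 genes, 1163 had an unadjusted p below 0.05 in the NoCre arm and 1903 in the interaction, by edgeR. Without any difference, a share of 0.05 of all genes would lie below that limit. Beside the 4 calls of edgeR in the NoCre arm, DESeq2 called 28 and limma-voom 3.

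**Figure D1:**
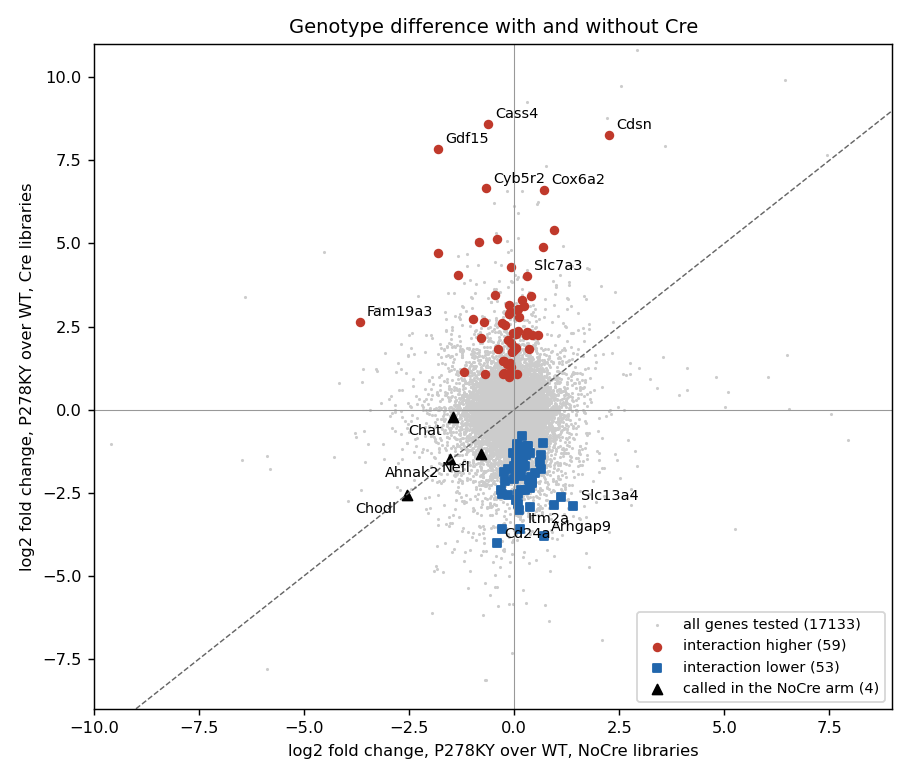
Each point is a gene, with its log2 fold change of P278KY over WT in the 11 NoCre libraries on the horizontal axis and in the 7 Cre libraries on the vertical axis. The dashed line marks equal differences. The 59 genes with a called positive interaction (red circles) and the 53 with a called negative one (blue squares) lie away from the line, 104 of these 112 within 1 of 0 on the horizontal axis, while Chodl and Ahnak2 of the 4 genes called in the NoCre arm (black triangles) lie on it.

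Each of the 112 genes kept the sign of its interaction in every alternative in which it was tested, but the number called moved with the scaling and with single libraries. With library sizes alone in place of TMM factors, which ran from 0.438 to 1.37, the median interaction of all genes moved from -0.02 to -0.32 and 5 genes were called: Cass4, Cyb5r2, Gdf15, Cd24a and Itm2a. With ribosomal RNA left out of the library sizes 28 were called, 18 positive and 10 negative. Within pool 1, 405 genes were called (2.36% of 17141), among them 78 of the 112, and pool 2 gives no value because it holds no Cre P278KY library. Leaving out 1 library gave 41 calls without Cre P278KY replicate 1, 60 without replicate 2 and 48 without replicate 3. It gave 250 without Cre WT replicate 1, 64 without replicate 3 and 70 without replicate 4. A set of 30 genes, 18 positive and 12 negative, was called in each of the 18 fits that left out 1 library.

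Genes of the integrated stress response made up 14 of the 59 positive calls. Of 44 measured members of 6 lists on its transcription factors, secreted products, enzymes, transporters and feedback genes, 14 had a called positive interaction, against 0.344% of all genes, and none a negative one. The 14 became 1 with library sizes alone, 7 without ribosomal RNA in the library sizes, and 8, 9 and 9 without Cre P278KY replicate 1, 2 or 3. In the Cre arm 30 of the 44 were called higher, against 1.03% of all genes, and in the NoCre arm none was called, against 0.0233%. The interaction was above 0 for 41 of the 44, against 8303 of the 17133 genes tested, and its median was 1.35, against -0.02. The lists were chosen with the stress response of these libraries already known, so their direction is a description.

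Of 8 measured transcription factor genes of the response, Atf5, Ddit3 and Atf4 were called in the interaction, against 0.344% of all genes with a positive one. In the Cre arm Nupr1 and Atf3 were called too, against 1.03% of all genes called higher there. Atf5, a leucine zipper factor whose translation is favoured when eIF2alpha is phosphorylated, had 28.6, 23.1 and 27.3 CPM in Cre P278KY and 3.43, 3.13, 3.26 and 4.39 CPM in Cre WT. In NoCre P278KY it had 4.76 to 7.20 CPM (median 6.29), and in NoCre WT 4.71, 7.19, 6.26, 11 and 5.02 CPM. The 3 Cre P278KY libraries were above all the others, while the NoCre groups overlapped and both lay above Cre WT. The interaction of Atf5 was 3.01 ± 0.38 (SE, adjusted p = 0.000271). Ddit3, the gene of the factor CHOP, had 30.1, 26.4 and 25.6 CPM in Cre P278KY, and 3.86, 4.37, 6.06 and 3.7 CPM in Cre WT. It had 3.44 to 7.90 CPM (median 5.86) in NoCre P278KY and 9.78, 8.91, 6.66, 4.78 and 5.48 CPM in NoCre WT. Again only Cre P278KY stood apart, and the interaction was 2.88 ± 0.41 (SE, adjusted p = 0.000589). Atf4 itself had 246, 181 and 228 CPM in Cre P278KY, against 76.6, 92.4, 34.6 and 48.2 CPM in Cre WT, where the 2 libraries of pool 1 were the higher ones. NoCre P278KY had 33.5 to 49.9 CPM (median 38.3) and NoCre WT 25.2, 46.3, 29.6, 58.0 and 42.5 CPM. Its interaction of 1.80 ± 0.37 (SE, adjusted p = 0.0200) was 1.23 within pool 1 (adjusted p = 0.0556), and it was not called without Cre P278KY replicate 1 or 3. Nupr1, a small stress-induced chromatin protein, had an interaction of 2.96 ± 0.75 (SE, adjusted p = 0.0767).

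All 7 measured genes of serine synthesis and mitochondrial one-carbon metabolism were called higher in the Cre arm, against 1.03% of all genes. In the interaction 4 were called, against 0.344% of all genes with a positive one: Psph, Phgdh, Psat1 and Shmt2. Phgdh, the first enzyme of serine synthesis, had 57.9, 45.8 and 51.1 CPM in Cre P278KY and 1.74, 1.81, 8.11 and 8.82 CPM in Cre WT, the lower pair in pool 1. NoCre P278KY libraries had 13.6 to 20.4 CPM (median 16.4), and NoCre WT libraries 13.3, 9.92, 12.8, 20.7 and 16.9 CPM. Cre WT was thus below the background and Cre P278KY above it, and the groups did not overlap except for the NoCre pair. The interaction was 3.12 ± 0.52 (SE, adjusted p = 0.00328), and 4.26 within pool 1. Psph, which removes the phosphate in the last step of the same pathway, had 74.1, 66.7 and 86.2 CPM in Cre P278KY and 10.2, 11.2, 10.5 and 6.37 CPM in Cre WT. In NoCre P278KY it had 2.79 to 10.9 CPM (median 8.77) and in NoCre WT 8.99, 6.89, 5.87, 6.18 and 11.3 CPM. The 3 groups other than Cre P278KY shared 1 range, and the interaction was 2.92 ± 0.42 (SE, adjusted p = 0.000589). Psat1, the aminotransferase between both, had 271, 306 and 278.3 CPM in Cre P278KY and 37.9, 52.6, 78.0 and 59.0 CPM in Cre WT, with an interaction of 2.02 ± 0.33 (SE, adjusted p = 0.00328). Shmt2, which passes a carbon of serine to folate in mitochondria, had an interaction of 1.89 ± 0.42 (SE, adjusted p = 0.0295) and was called in 10 of 18 fits that left out 1 library. Within pool 1 the value of Shmt2 was 1.44 (adjusted p = 0.0632).

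**Figure D2:**
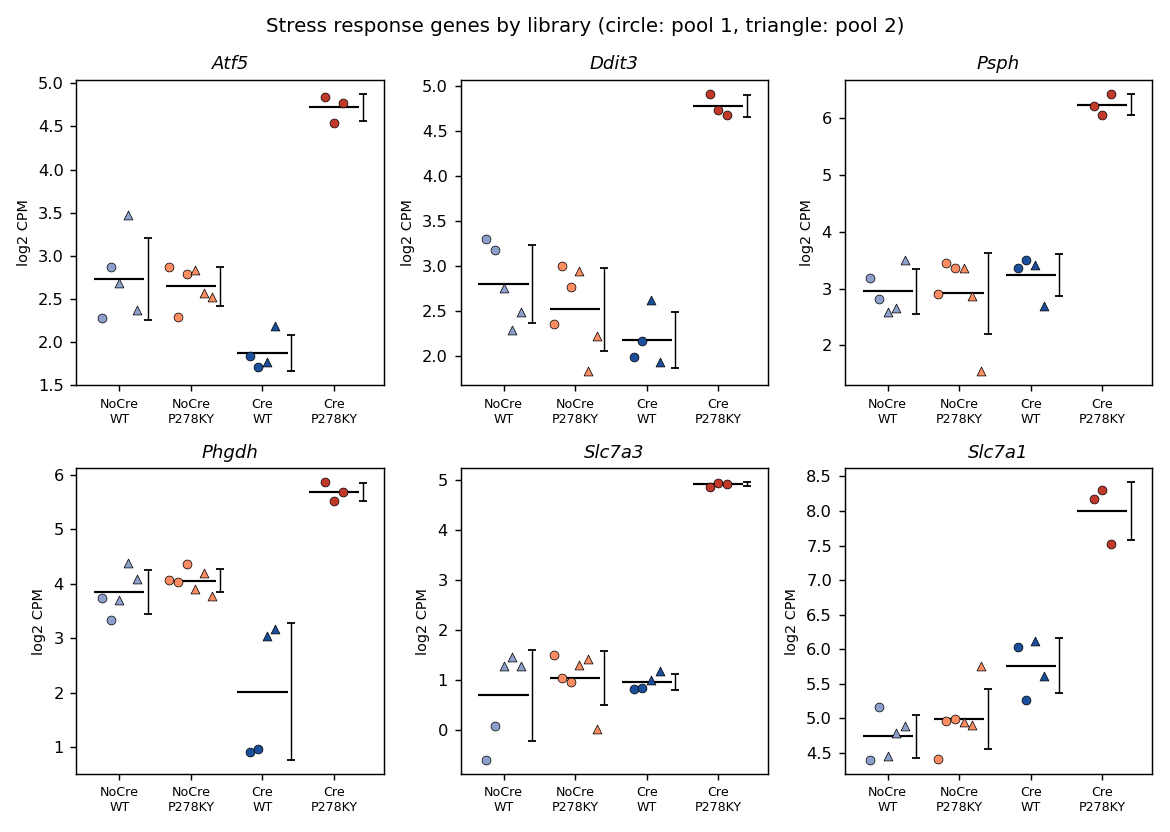
Log2 CPM (prior count 2) of 6 stress response genes in each library, by group, with the group mean (line) and SD (bar to the right). Circles are libraries of pool 1 and triangles those of pool 2. In each panel the 3 Cre P278KY libraries lie above the 15 others.

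Amino acid uptake genes were called in part. Of 10 measured transporter genes, Slc7a3, Slc7a1 and Slc7a5 were called in the interaction, Slc3a2 was called in the Cre arm alone, and the interaction of Slc43a1 was -3.21 (adjusted p = 0.202). Over all genes, 0.344% had a called positive interaction and 1.03% were called higher in the Cre arm. Slc7a3, a transporter of arginine and lysine, had 28.9, 30.6 and 30.0 CPM in Cre P278KY and 1.62, 1.65, 1.86 and 2.11 CPM in Cre WT. The NoCre P278KY libraries had 0.872 to 2.67 CPM (median 2.12) and the NoCre WT libraries 0.524, 0.911, 2.29, 2.59 and 2.28 CPM. Values without Cre and in Cre WT overlapped, and the interaction was 3.72 ± 0.53 (SE, adjusted p = 0.000589). Slc7a1, a ubiquitous carrier of the same amino acids, had 289, 314 and 184 CPM in Cre P278KY against 65.6, 38.5, 69.4 and 48.7 CPM in Cre WT, and its interaction was 1.96 ± 0.35 (SE, adjusted p = 0.00765). Slc7a5, the light chain of a leucine exchanger, had an interaction of 1.67 ± 0.38 (SE, adjusted p = 0.0417) and was called in 5 of the 18 fits that left out 1 library. Slc3a2, the heavy chain that Slc7a5 pairs with, had 1.30 ± 0.32 (SE, adjusted p = 0.0624).

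Of 8 other amino acid enzymes, Pycr1 was called in the interaction and 6 were called higher in the Cre arm, against 0.344% and 1.03% of all genes. Pycr1, which makes proline in mitochondria, had 11.7, 15.7 and 18.0 CPM in Cre P278KY and 1.74, 2.88, 1.49 and 2.63 CPM in Cre WT. NoCre P278KY had 0.6 to 3.14 CPM (median 1.55) and NoCre WT 0.960, 1.52, 1.09, 1.195 and 3.35 CPM. Only Cre P278KY stood apart, but the interaction of 2.68 ± 0.63 (SE, adjusted p = 0.0498) was just under the threshold and was called in 6 of 18 fits that left out 1 library. Asns, the asparagine synthetase, had an interaction of 0.99 ± 0.32 (SE, adjusted p = 0.180). Among 6 feedback genes and growth brakes, Sesn2, an inhibitor of mTORC1, was called. It had 40.7, 43.7 and 40.5 CPM in Cre P278KY and 10.1, 7.66, 7.71 and 8.56 CPM in Cre WT, and its interaction was 1.96 ± 0.41 (SE, adjusted p = 0.0208). Without any of Cre P278KY replicates 1, 2 and 3 or Cre WT replicate 3 Sesn2 was not called.

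ATF4 with a C/EBP partner binds a composite element with the letters TGATGNAA, and the 250 bases before the start site were searched for it on both strands in the promoter windows of RefSeq (GRCm38.p6). It occurred in 11 of 39 stress response genes with a window and in 3.45% of all 32851 windows. Of the 12 genes called in the interaction that have a window, Pycr1 alone holds a match, while Fgf21, Nupr1 and Chac1, which were called in the Cre arm but not in the interaction, hold one each and were picked after the matches were seen. The 4 windows are shown, 120 bases each from 5′ to 3′ on the gene's strand, to set the promoter of a called gene beside those of genes that missed the call; capitals mark the match, which in all but Pycr1 is the reverse complement TTNCATCA.
Pycr1 chr11:120643792-120643911 (-): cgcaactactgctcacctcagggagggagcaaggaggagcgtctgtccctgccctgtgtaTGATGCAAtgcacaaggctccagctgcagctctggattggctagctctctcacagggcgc
Fgf21 chr7:45615570-45615689 (-): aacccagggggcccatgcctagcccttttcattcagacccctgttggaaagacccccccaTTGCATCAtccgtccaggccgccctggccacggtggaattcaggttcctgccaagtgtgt
Nupr1 chr7:126625521-126625640 (-): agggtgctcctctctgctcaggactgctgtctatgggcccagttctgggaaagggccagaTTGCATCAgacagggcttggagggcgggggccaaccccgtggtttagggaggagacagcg
Chac1 chr2:119350992-119351111 (+): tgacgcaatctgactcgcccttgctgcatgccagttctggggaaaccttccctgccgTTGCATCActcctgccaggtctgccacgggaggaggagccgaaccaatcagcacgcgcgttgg
The first base of the match lies 103 bases before the start site in Pycr1, 139 in Fgf21, 110 in Nupr1 and 193 in Chac1. A match is a run of letters and was not tested for binding.

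Of the secreted products of the response, all 5 measured genes were called higher in the Cre arm, against 1.03% of all genes. In the interaction, positive calls in 0.344% of all genes, Gdf15 and Stc2 were called but Fgf21, Adm2 and Vegfa were not. Gdf15, a circulating stress cytokine, had 10.9, 9.63 and 9.81 CPM in Cre P278KY (609 reads in all) and 3 reads in all in Cre WT. The ratio of these levels was 284 (95% counting interval 96.8 to 1382). Without Cre the libraries held 5 reads in NoCre P278KY and 9 in NoCre WT, a ratio of 0.30 (0.0789 to 0.996). The fitted interaction of Gdf15 was 9.65 (adjusted p = 0.00809), and it was not called without NoCre WT replicate 4, which at 1.39 CPM was the highest of the NoCre libraries. Stc2, the secreted glycoprotein stanniocalcin, had 15.0, 14.6 and 12.6 CPM in Cre P278KY, 2.06, 1.98, 1.40 and 1.89 CPM in Cre WT, 0.533 to 6.28 CPM (median 1.33) in NoCre P278KY, and 1.66, 1.82, 1.39, 2.19 and 3.50 CPM in NoCre WT. Its interaction was 3.03 ± 0.71 (SE, adjusted p = 0.0485), called in 5 of the 18 fits that left out 1 library.

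Fgf21, a hormone of nutrient stress, had 103, 70.6 and 138 CPM in Cre P278KY (5918 reads) and 8 reads in all in Cre WT, a ratio of 1035 (525 to 2399). In NoCre P278KY it had 53 reads, 0.0611 to 1.92 CPM (median 0.738), and in NoCre WT none in any of the 5 libraries. That level was at least 9.53-fold higher than 3 reads over the NoCre WT group would give. The NoCre arm of Fgf21 thus went the same way as the Cre arm, and its interaction was not called (adjusted p = 0.972). With no reads in NoCre WT, the fitted NoCre arm of 6.43 and interaction of 3.50 rest on an empty group. The missing call therefore does not show that both arms rose alike. Adm2, a peptide of the calcitonin family, had 866 reads in Cre P278KY and none in Cre WT, at least 404-fold higher with 3 reads over the group as the floor. Without Cre it had 19 reads in P278KY against 1 in WT, a ratio of 10.3 (1.63 to 426), and the adjusted p of its interaction was 0.361. For Adm2 too the fitted interaction rests on an empty group, Cre WT. Vegfa, the vascular growth factor, had an interaction of 1.24 ± 0.31 (SE, adjusted p = 0.0630). The intervals and floors cover counting error only.

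Cytosolic and mitochondrial tRNA synthetases, which charge tRNAs in the 2 compartments, are listed beside the stress genes because Gars belongs to both kinds. Of 23 measured cytosolic synthetase and scaffold genes, Wars and Rars were called in the interaction, 7 were called higher in the Cre arm and none in the NoCre arm. The shares of all genes were 0.344% for a positive interaction, 1.03% higher in the Cre arm and 0.0233% called in the NoCre arm. Their median interaction was 0.91, 21 of the 23 values were above 0, and within pool 1 the median was 0.23. None of the 17 mitochondrial synthetase genes was called in either arm or in the interaction, with a median interaction of 0.00. Wars, the tryptophan enzyme, had 318, 328 and 358 CPM in Cre P278KY and 160, 140, 96.6 and 92.4 CPM in Cre WT, the lower pair in pool 2. NoCre P278KY had 30.0 to 40.0 CPM (median 36.4) and NoCre WT 41.6, 26.8, 33.2, 57.2 and 58.0 CPM. The interaction of Wars was 1.72 ± 0.31 (SE, adjusted p = 0.00789), and 0.98 within pool 1 (adjusted p = 0.0733). Rars, the arginine enzyme, had 121, 94.5 and 136 CPM in Cre P278KY and 56.9, 54.9, 43.4 and 37.4 CPM in Cre WT, with an interaction of 1.36 ± 0.26 (SE, adjusted p = 0.0119) and 1.10 within pool 1 (adjusted p = 0.0441), not called without Cre P278KY replicate 1 or 3. Gars had 274, 250 and 297 CPM in Cre P278KY and 168, 159, 124 and 105 CPM in Cre WT, so the Cre groups did not overlap. In NoCre P278KY it had 26.3 to 40.3 CPM (median 36.0) and in NoCre WT 32.5, 23.4, 44.8, 30.5 and 39.4 CPM, which overlapped. The Cre arm of Gars was 0.98 (adjusted p = 0.0149) and its interaction 0.94 ± 0.28 (SE, adjusted p = 0.149), with 0.33 within pool 1. A list of 14 measured genes held the eIF2alpha kinases, GCN1, ZAK and eIF2B subunits, with Eif2s1, Impact and Ppp1r15b. None of the 14 was called in any of the 3 comparisons, and their median interaction was 0.05.

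**Figure D3:**
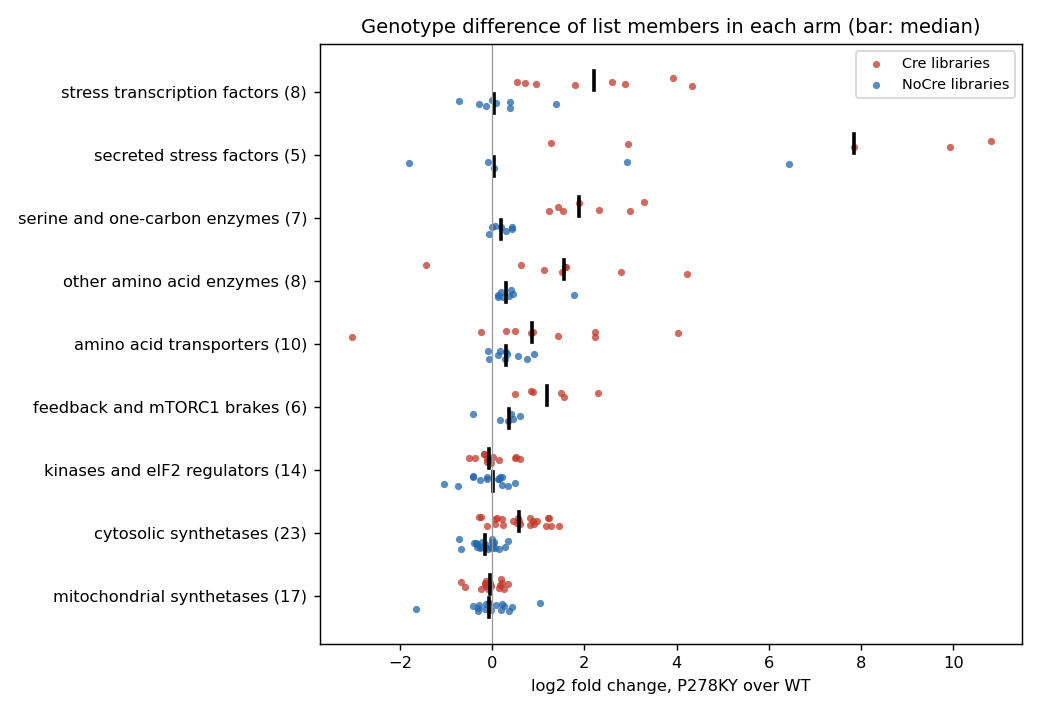
Log2 fold change of P278KY over WT for the members of 9 gene lists, in Cre libraries (red, upper row of each list) and NoCre libraries (blue, lower row), with the number of measured members in brackets and the median as a black bar. In the 6 stress response lists the Cre median lies above the NoCre median, from 0.86 against 0.29 for the transporters to 7.84 against 0.04 for the secreted factors, and in the kinase and mitochondrial lists both medians are close to 0.

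Outside the stress lists, several of the largest positive interactions were of genes with few reads in Cre WT. Cass4, a scaffold protein of focal adhesions, had 10.2, 14.7 and 10.9 CPM in Cre P278KY and 2 reads in all 4 Cre WT libraries, a ratio of 514 (95% counting interval 142 to 4255). Without Cre it had 0.251 to 1.65 CPM (median 0.681) in P278KY and 0.873, 0.506, 0.696, 4.58 and 0 CPM in WT, so that the background held more Cass4 than Cre WT did. The fitted interaction was 9.22 ± 1.30 (SE, adjusted p = 0.000589). Cyb5r2, a cytochrome b5 reductase, had 10.2, 8.24 and 8.37 CPM in Cre P278KY and 7 reads in Cre WT, a ratio of 108 (51.9 to 269), against a ratio of 0.69 (0.446 to 1.08) without Cre. Cdsn, an adhesion protein of skin, had 37.5, 36.9 and 38.8 CPM in Cre P278KY and 9 reads in Cre WT. Without Cre it had 63 reads in P278KY and 7 in WT, a ratio of 4.86 (2.22 to 12.6), which went the same way as the ratio of 352 (185 to 770) with Cre. The interaction of Cdsn was 6.03 ± 1.17 (SE, adjusted p = 0.0119) and was not called without NoCre WT replicate 1. Cox6a2, the heart and muscle form of a cytochrome oxidase subunit, had 23.8, 21.3 and 34.0 CPM in Cre P278KY and 0.125, 0.659, 0.122 and 0.258 CPM in Cre WT. Its interaction of 5.91 ± 1.13 (SE, adjusted p = 0.0137) was not called without NoCre WT replicate 3, and was 3.17 within pool 1 (adjusted p = 0.435). The 18 muscle genes measured, whose part in this result was not tested, had summed levels of 27.1 to 34.4 CPM in Cre P278KY and 54.2 to 383 CPM in Cre WT. P2rx3, an ATP-gated channel of sensory neurons, had 21.9, 34.9 and 21.3 CPM in Cre P278KY against 0.187, 0.165, 0.762 and 2.19 CPM in Cre WT, with an interaction of 4.20 ± 0.96 (SE, adjusted p = 0.0461) that was called in 4 of 18 fits without 1 library.

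In a further group the mean of Cre WT lay below the NoCre means and that of Cre P278KY above them. Cdkn1a, the cell cycle inhibitor p21, had 243, 168 and 184 CPM in Cre P278KY and 5.73, 6.92, 23.7 and 36.6 CPM in Cre WT, the higher pair in pool 2. The NoCre P278KY libraries had 32.9 to 44.9 CPM (median 35.6) and the NoCre WT libraries 26.3, 34.8, 31.5, 14.1 and 31.7 CPM. Its interaction was 3.03 ± 0.56 (SE, adjusted p = 0.0119), 4.64 within pool 1, and not called without Cre P278KY replicate 1. Among 17 measured p53 targets Cdkn1a was called, against 0.344% of all genes with a positive call. The list's median interaction was 0.92, against -0.02 for all genes. Fam129a, a stress-induced phosphoprotein, had 17.2, 16.2 and 14.1 CPM in Cre P278KY and 1.06, 2.14, 1.31 and 2.71 CPM in Cre WT, with 4.00 to 8.47 CPM (median 8.09) in NoCre P278KY and 11, 9.62, 5.27, 7.77 and 5.94 CPM in NoCre WT. The interaction of Fam129a was 3.26 ± 0.45 (SE, adjusted p = 0.000572). Ddr2, a collagen receptor kinase, had an interaction of 2.93 ± 0.49 (SE, adjusted p = 0.00328), with 44.0, 39.4 and 22.0 CPM in Cre P278KY and 2.74 to 7.10 CPM in Cre WT, which overlapped the NoCre range of 6.37 to 20.7 CPM. Trim66, a chromatin reader, had 62.2, 74.6 and 63.1 CPM in Cre P278KY and 7.85, 13.6, 17.0 and 15.5 CPM in Cre WT, while the NoCre libraries of both genotypes lay between, at 18.6 to 34.3 CPM. Its interaction was 2.33 ± 0.32 (SE, adjusted p = 0.000568). In another pattern, Cre WT too lay above the background: Rcc2, a regulator of chromosome condensation, had 190, 182 and 216 CPM in Cre P278KY and 57.9, 52.2, 51.0 and 57.0 CPM in Cre WT, with 22.1 to 39.0 CPM in all NoCre libraries and an interaction of 1.82 ± 0.25 (SE, adjusted p = 0.000568). A smaller called value was that of Gap43, a growth cone protein and the only call among 23 axon injury genes, at 1.11 ± 0.25 (SE, adjusted p = 0.0373), called in 9 of the 18 fits without 1 library.

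Of the 59 genes with a positive interaction, 27 were enriched in Cre over NoCre as a mean of both genotypes, 11 were depleted and 21 were neither. That mean includes Cre P278KY, so a rise or fall there moves both the interaction and the class. The classes are thus not independent of the interaction and serve as a description. Slc7a3, for example, counts as enriched although its Cre WT levels overlapped those without Cre. Of the 53 with a negative one, 18 were enriched, 21 depleted and 14 neither. Among all genes tested, 34% were enriched and 39.4% depleted, close to the split of the 53. Within pool 1 the interaction was called for 17 of the 18 enriched falls and for 11 of the 21 depleted ones. Without Cre WT replicates 3 and 4, where 82 genes (0.46%) were called in all, it was called for 11 of 18 and for 3 of 21. In 10 of the 21 depleted falls both pool 2 Cre WT libraries were above both of pool 1, against 3 of the 18 enriched falls and 26.0% of all genes tested. In 10 of the 18 enriched falls both were below both of pool 1, against 3 of the 21 depleted ones and 29.9% of all genes. With a pool term in the fit 17 of the 18 enriched and 18 of the 21 depleted falls were called. The differences between these shares were not tested.

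Of the enriched falls, the smallest adjusted p was that of Cd24a, a small sialoglycoprotein anchored in the neuronal surface. It had 58.6, 49.3 and 39.7 CPM in Cre P278KY and 1012, 940, 615 and 640 CPM in Cre WT. In NoCre P278KY it had 34.7 to 57.0 CPM (median 48.8) and in NoCre WT 62.6, 86.6, 79.3, 42.6 and 44.9 CPM. Its level in Cre P278KY thus lay within the range of the libraries without Cre. The interaction was -3.61 ± 0.35 (SE, adjusted p = 4.76e-06), and Cd24a was called in all 31 alternatives. In bulk libraries such as these, fewer cells with the mRNA and less of it per cell cannot be told apart. Cd55, a complement inhibitor of the same kind of membrane anchor, had 12.6, 15.3 and 9.54 CPM in Cre P278KY and 80.3, 70.4, 79.7 and 56.8 CPM in Cre WT. Without Cre it had 6.37 to 21.8 CPM (median 10.9) in P278KY and 8.73, 16.8, 12.2, 8.37 and 11.4 CPM in WT. Cre P278KY again overlapped both NoCre groups, and the interaction was -2.60 ± 0.43 (SE, adjusted p = 0.00328). Arhgap9 had 0.616, 0.653 and 0.412 CPM in Cre P278KY and 10.2, 7.74, 6.98 and 7.19 CPM in Cre WT, and its interaction of -4.51 ± 0.89 (SE, adjusted p = 0.0136) was not called when any 1 of the 3 Cre P278KY libraries was left out. Mest, an imprinted gene of the hydrolase fold, had 50.0, 52.3 and 31.1 CPM in Cre P278KY and 233, 267, 227 and 188 CPM in Cre WT, with an interaction of -2.73 ± 0.51 (SE, adjusted p = 0.0119). Mrvi1, a partner of the IP3 receptor, had -2.76 ± 0.51 (SE, adjusted p = 0.00907). Rbfox3, the neuronal splicing factor known as NeuN, had 64.9, 91.4 and 64.7 CPM in Cre P278KY against 154, 141, 173 and 163 CPM in Cre WT, and an interaction of -1.39 ± 0.29 (SE, adjusted p = 0.0208). Rbfox3 lost its call when replicate 1 or 3 of Cre P278KY was left out, and likewise for replicate 3 or 4 of Cre WT, while Mrvi1 was not called without Cre P278KY replicate 1 or 3, nor Mest without Cre P278KY replicate 3.

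**Figure D4:**
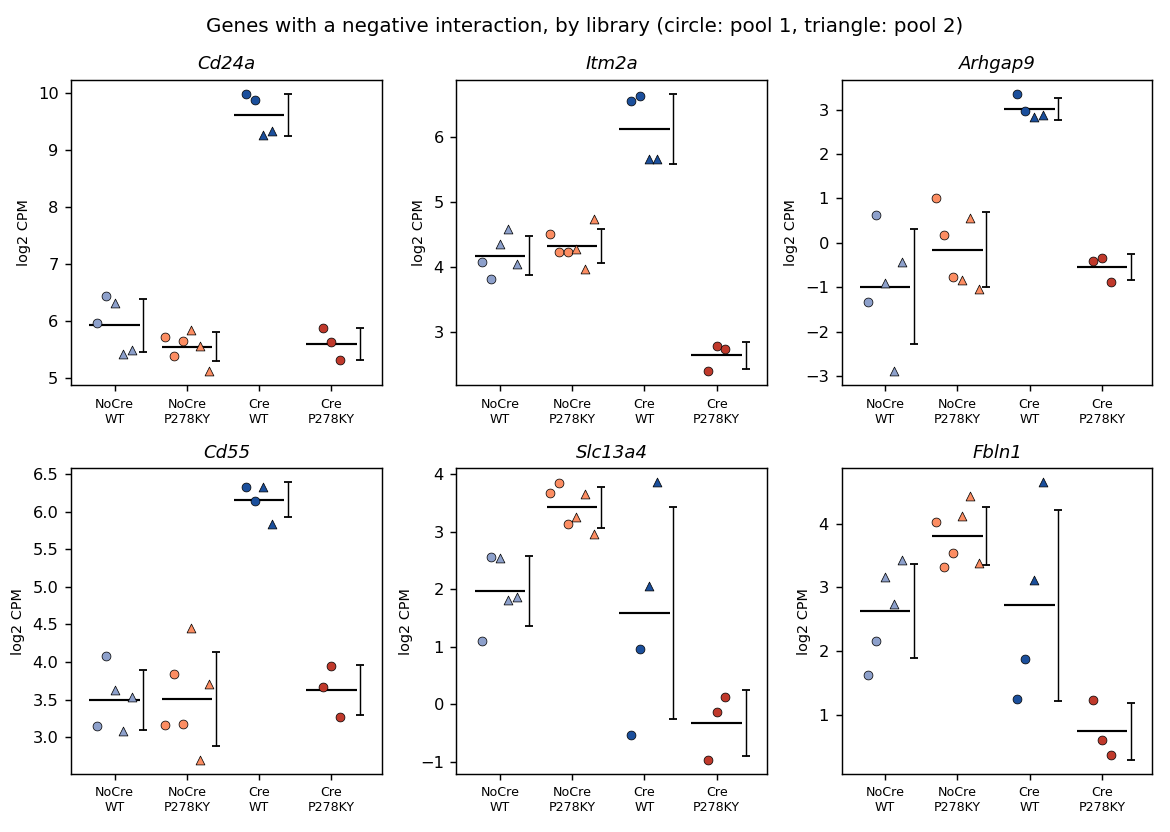
Log2 CPM (prior count 2) of 6 genes with a called negative interaction in each library, by group, with the group mean (line) and SD (bar to the right). Circles are libraries of pool 1 and triangles those of pool 2. For Cd24a, Itm2a, Arhgap9 and Cd55 all 4 Cre WT libraries lie above the 14 others, and for Slc13a4 and Fbln1 the 2 triangles of Cre WT lie above its 2 circles.

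Itm2a, a membrane protein on the list of vascular markers, was neither enriched nor depleted on average. It had 5.12, 6.73 and 6.52 CPM in Cre P278KY and 93.9, 99.1, 50.5 and 50.2 CPM in Cre WT. NoCre P278KY had 15.5 to 26.5 CPM (median 18.9) and NoCre WT 16.8, 13.9, 20.2, 23.9 and 16.3 CPM. The groups with Cre lay on opposite sides of those without it, and the interaction was -3.73 ± 0.37 (SE, adjusted p = 4.76e-06), called in all 31 alternatives. Wnk4, a kinase of ion cotransporters, had -3.32 ± 0.62 (SE, adjusted p = 0.00907), and Pla2g3, a secreted phospholipase, had -3.31 ± 0.61 (SE, adjusted p = 0.00809). Pon3, a lactonase, had -3.13 ± 0.67 (SE, adjusted p = 0.0246). Wnk4 was not called without Cre P278KY replicate 1, and Pon3 lost its call when replicate 1 or 2 of Cre P278KY or replicate 2 of Cre WT was left out. Ighm, the immunoglobulin heavy chain mu, had 5.69, 16 and 6.45 CPM in Cre P278KY and 56.9, 79.1, 80.2 and 53.2 CPM in Cre WT, with an interaction of -2.92 ± 0.49 (SE, adjusted p = 0.00356). Ano3, a membrane protein of the anoctamin family, had 9.62, 14.5 and 15.8 CPM in Cre P278KY, 61.0 to 84.1 CPM in Cre WT and 20.7 to 45.5 CPM in the NoCre libraries, and its interaction was -2.57 ± 0.34 (SE, adjusted p = 0.000461). The histone genes Hist1h1c (-2.46 ± 0.42, SE, adjusted p = 0.00426) and Hist1h2bc (-2.25 ± 0.33, SE, adjusted p = 0.000922) had negative interactions too. Both were called in each of the 18 fits that left out 1 library. Near-identical copies can make counts of single histone genes uncertain, which was not tested here.

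Of the depleted falls, Slc13a4, a sulfate transporter, had 0.379, 0.775 and 0.960 CPM in Cre P278KY and 0.561 and 1.81 CPM in Cre WT of pool 1, against 4.02 and 14.3 CPM in Cre WT of pool 2. In NoCre P278KY it had 7.67 to 14.3 CPM (median 11) and in NoCre WT 2.01, 5.77, 5.67, 3.39 and 3.50 CPM. The Cre groups overlapped, and the interaction of -4.31 ± 0.90 (SE, adjusted p = 0.0236) was -2.33 within pool 1 (adjusted p = 0.111) and was not called without Cre WT replicate 4 or any of the 3 Cre P278KY libraries. Fbln1, the matrix protein fibulin, had 2.23, 1.39 and 1.17 CPM in Cre P278KY and 2.24, 3.54, 8.50 and 24.9 CPM in Cre WT, with an interaction of -3.74 ± 0.80 (SE, adjusted p = 0.0273). Mxra8, another matrix-associated protein, had -3.82 ± 0.89 (SE, adjusted p = 0.0498), -1.73 within pool 1 (adjusted p = 0.237), and was called in 3 of the 18 fits that left out 1 library. Fxyd1, a regulator of the sodium pump, had -2.65 ± 0.54 (SE, adjusted p = 0.0178). Acacb, an acetyl-CoA carboxylase, had -2.68 ± 0.62 (SE, adjusted p = 0.0425), called in 3 of those 18 fits. Glul, the glutamine synthetase of astrocytes, had -1.26 ± 0.30 (SE, adjusted p = 0.0498), and B2m, the light chain of MHC class I and the only call among 20 interferon and MHC genes, had -1.30 ± 0.29 (SE, adjusted p = 0.0309). Over all genes, 0.309% had a called negative interaction. With 1 library left out, Glul was called in 3 of 18 fits, B2m in 6, Fbln1 in 10 and Fxyd1 in 14; each of the 3 Cre P278KY libraries and Cre WT replicate 4 ended the call of Fbln1 and of Fxyd1.

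The 18 oligodendrocyte genes summed to 773 to 1890 CPM in Cre P278KY, to 817 and 1314 CPM in Cre WT of pool 1 and to 4233 and 4622 CPM in Cre WT of pool 2, against 9083 to 13924 CPM without Cre. The 14 astrocyte genes summed to 734 to 1268 CPM in Cre P278KY, 1157 and 1387 CPM in Cre WT of pool 1 and 2402 and 2257 CPM in Cre WT of pool 2. The 10 meningeal genes summed to 93.8 to 170 CPM in Cre P278KY, 71.1 and 135 CPM in Cre WT of pool 1, and 466.2 and 1626 CPM in Cre WT of pool 2. No marker of these lists was at 0 in all libraries of a group. The median interaction was -1.49 for the oligodendrocyte list and -0.39 within pool 1. It was -1.25 and -0.09 for the astrocyte list, -1.29 and -0.26 for the 14 vascular genes, and -3.05 and -0.84 for the meningeal list. The part of these markers in the falls was not tested. In the interaction, no gene of the oligodendrocyte, meningeal, microglia, Schwann cell or blood lists was called, Glul was the only astrocyte call and Itm2a the only vascular one. Over all genes tested, 0.654% were called. For 18 muscle genes, none called, the median interaction was -2.78 and -4.49 within pool 1, with summed levels of 231 to 1669 CPM in NoCre P278KY and 131 to 1940 CPM in NoCre WT.

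Of the 21 cholinergic motor neuron genes, 3 were called lower in the Cre arm, against 1.35% of all genes, and 3 in the NoCre arm, against 0.0233% called there. None was called in the interaction, against 0.654% of all genes. Its median over the list was 0.31, -0.07 within pool 1 and -0.04 with library sizes alone. Their medians were -0.52 in the Cre arm and -0.79 in the NoCre arm, and summed levels were 16182 to 20178 CPM in Cre P278KY and 29959 to 54368 CPM in Cre WT, against 2078 to 3414 CPM in NoCre P278KY and 3639 to 7667 CPM in NoCre WT. Abundant members weigh most in these sums, which do not stand for each gene of the list. Nefl alone had 6309 of 18494 CPM in Cre P278KY replicate 1 and 19351 of 54368 CPM in Cre WT replicate 1. Of the 4 genes called in the NoCre arm, all lower, 3 were also called lower in the Cre arm: Chodl, Ahnak2 and Nefl. Chodl, a lectin and marker of fast motor neurons, had 79.1, 62.9 and 74.0 CPM in Cre P278KY and 600, 569, 293 and 248 CPM in Cre WT. Without Cre it had 1.28 to 3.66 CPM (median 1.77) in P278KY and 15.9, 13.6, 11.4, 8.17 and 12.8 CPM in WT. The genotypes did not overlap in either arm, and the difference was -2.57 with Cre (adjusted p = 6.58e-05) and -2.55 without it (adjusted p = 5.94e-05), an interaction of -0.02 ± 0.51 (SE). Ahnak2, a large scaffold protein, had 267, 240 and 168 CPM in Cre P278KY and 720, 671, 585 and 560 CPM in Cre WT, with 20.3 to 34.2 CPM (median 24.9) in NoCre P278KY and 67.5, 51.2, 53.5, 90.6 and 105 CPM in NoCre WT. Its differences were -1.50 and -1.52 (adjusted p = 0.00129 and 0.000620), with an interaction of 0.03 ± 0.31 (SE). Nefl, the neurofilament light chain, had 6309, 6199 and 6461 CPM in Cre P278KY and 19351, 18728, 13617 and 11848 CPM in Cre WT. It had 829.4 to 1109 CPM (median 992) in NoCre P278KY and 1706, 1698, 1559, 1829 and 1694 CPM in NoCre WT. Its interaction was -0.54 ± 0.23 (SE, adjusted p = 0.371).

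**Figure D5:**
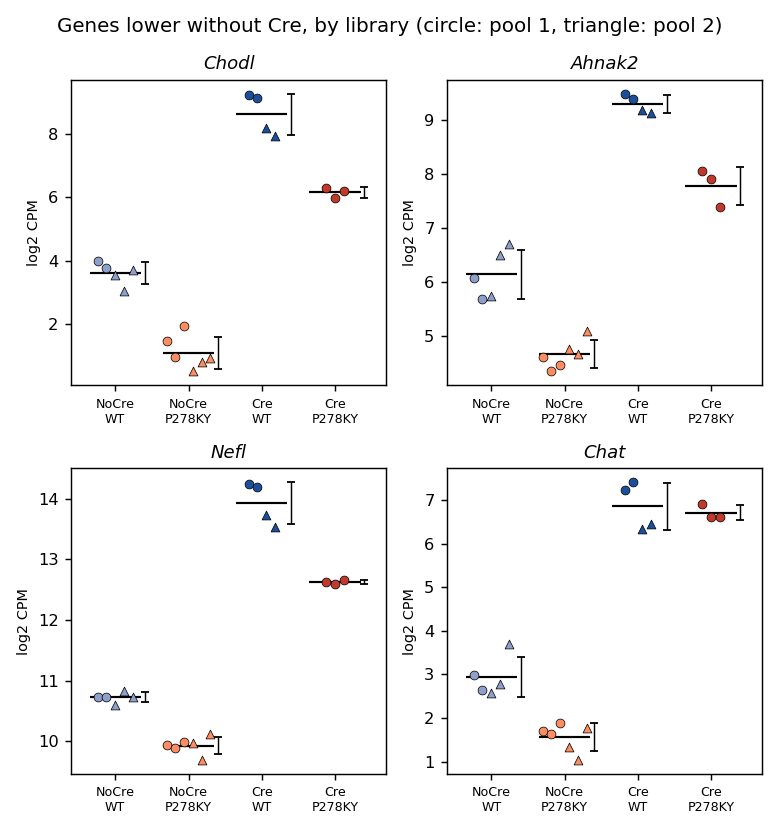
Log2 CPM (prior count 2) of the 4 genes called lower in P278KY without Cre, in each library, by group, with the group mean (line) and SD (bar to the right). Circles are libraries of pool 1 and triangles those of pool 2. Chodl, Ahnak2 and Nefl are lower in P278KY with and without Cre, and Chat overlaps between the genotypes in Cre libraries.

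Chat was called in the NoCre arm alone. It had 120, 97.9 and 97.8 CPM in Cre P278KY and 148, 169, 80.9 and 87.6 CPM in Cre WT, where the groups overlapped and the difference was -0.21 (adjusted p = 0.827). Without Cre it had 1.93 to 3.58 CPM (median 3.05) in P278KY and 7.86, 6.08, 5.87, 6.77 and 12.9 CPM in WT, a difference of -1.45 (adjusted p = 0.0339). Its interaction was 1.24 ± 0.37 (SE, adjusted p = 0.145) and 0.54 within pool 1. The difference in the number of Chat alleles between Cre and NoCre mice cannot be told apart from the presence of Cre. Rpl22 had 34.8, 34.6 and 34.6 CPM in Cre P278KY and 39.0, 43.1, 23.6 and 25.3 CPM in Cre WT, and its interaction was 0.42 ± 0.32 (SE, adjusted p = 0.684).

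For 4 of the 112 genes neither arm was called. Fam19a3, a secreted brain peptide, had an interaction of 6.33 ± 1.39 (SE, adjusted p = 0.0295) from 144 reads in Cre P278KY and 32 in Cre WT, a ratio of 6.30 (4.27 to 9.55), and from 7 reads in NoCre P278KY and 43 in NoCre WT, a ratio of 0.0878 (0.0333 to 0.197). NoCre WT replicate 4 had 5.38 CPM of it, against 0.152 to 0.810 CPM in the other NoCre WT libraries. Fgd5, a GTPase exchange factor of endothelial cells, had 2.31 (adjusted p = 0.0380), with 27.7 and 33.0 CPM in NoCre WT replicates 4 and 5 and 8.99 to 10.2 CPM in the other 3. The interactions of Net1 (-1.69) and Arhgap6 (-2.01) were negative. With 1 library left out, Fam19a3 and Fgd5 were each called in 7 of 18 fits, Arhgap6 in 3 and Net1 in 15.

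No gene was called in the interaction in the lists of stalled ribosome rescue (10 measured), endoplasmic reticulum chaperones (16), cytosolic chaperones (15), neurofilaments and tubulins (17), potassium channels (26), sodium and calcium channels (22), synaptic vesicles (20, Pclo under 2 identifiers), cholesterol synthesis (19) or immediate early genes (13). The same held for gamma motor neurons (9), excitatory (12) and inhibitory interneurons (12), mitochondrially encoded genes (13), ribosomal proteins (77) and the proteasome (38). In the motor neuropathy list Wars was the only call of 29, and in the respiratory chain list Cox6a2 the only one of 77. Over all genes tested, 0.654% were called in the interaction. Within pool 1, where 2.36% of all genes were called, the respiratory chain list had 9 calls and the ribosomal protein list 5. The other lists named in this paragraph had 0 to 2 calls there. On chromosome 6, which carries Gars at 55038007 to 55079500 on the plus strand (GRCm38), lay 8 of the 112 called genes (7.14%) and 4.98% of all genes tested: Pon3, Mdfic, Mest, Slc13a4, Tra2a, Hnrnpa2b1, Fgd5 and Mgst1. The strain origin of the alleles beside Gars was not tested. In the annotation 25 of the 112 genes overlap a protein-coding gene on the other strand, and for none of the 20 with a tested partner was the partner called, in the interaction or in the Cre arm. Whether the counting used strand is not given in the sources used here.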

How the data were processed

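Ribosome-associated mRNA from spinal cord was sequenced in 18 mice, 1 library each. The authors deposited a gene table per library with the expected counts of RSEM, per the file headers. The submitters' processing notes list RSEM (1.2.12) beside Bowtie2 (2.2.0). For the genome build, the sources used here give nothing. The deposited expected counts, 8177817 to 24028695 per library, were rounded to whole numbers. Positions came from GENCODE release M21 (GRCm38), matched by identifier for 37607 of 38924 genes.

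Groups followed the genotype labels. Counts were filtered with filterByExpr, scaled by TMM and fitted with 4 group means in edgeR 4.0.16 (R 4.3.3, robust dispersions). The two-sided quasi-likelihood test gave p-values, adjusted over all genes tested by Benjamini-Hochberg. Unless another tool is named, an adjusted p is from this test. The test was also run on simulated counts with 1 mean per gene in all groups, apart from genes set to change in Cre P278KY. Those counts held no enrichment of Cre over NoCre and no pool difference, so the simulation does not cover these features of the libraries. SE is the log2 fold change over the square root of F. Labels do not say that replicates came from separate litters or days, and p-values measure the spread between these mice. Correlations of log2 CPM within groups were 0.835 to 0.976, and no pair was a duplicate.

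The question, the 38 gene lists and the rule for named genes were chosen with earlier results of these data known. The rule named the 15 largest positive and negative interactions among the calls whose mean log2 CPM exceeded 1 (no predicted genes, pseudogenes, Xist or Y-linked genes), up to 4 members per list, genes called alike in both arms, and Gars, Rpl22 and Chat. Fgf21, Chac1, Trim66, Rcc2, Ano3, Rbfox3, Hist1h1c, Hist1h2bc, Slc43a1, Net1, Arhgap6, Fgd5, Fam19a3, Tra2a, Hnrnpa2b1 and Mgst1 fell outside it and were chosen after their values were seen. Counting intervals are exact binomial at 95%, and floors are 3 counts.

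Alternatives were RLE factors, library sizes with and without ribosomal RNA, other filters, DESeq2 1.42.0, limma-voom (3.58.1), a pool term, pool 1 alone, a block by mouse number and the leaving out of libraries. The mouse number, whose meaning is not in the labels, did not pair the samples.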

Additional observations from a re-analysis of the deposited data

Results flagged for a closer look

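The genotype difference itself differed between Cre and NoCre libraries for 112 genes by the interaction test of edgeR, which the report describes. Single libraries far from the rest of their group were looked for in 35 genes with values by library, in 105 groups of 4 to 6 libraries, and 7 were found; chance alone marks about 1 in 20 groups. In NoCre P278KY replicate 6 lay apart for Psph (2.79 CPM, others 7.21 to 10.9), Slc7a3 (0.872 CPM, others 1.79 to 2.67) and Mest (110 CPM, others 34.2 to 50.8). In the same group replicate 1 was low for Fam129a (4.00 CPM, others 6.79 to 8.47), replicate 2 high for Cdkn1a (44.9 CPM, others 32.9 to 36.3) and replicate 4 high for Mxra8 (14.4 CPM, others 7.76 to 9.53). Cre WT replicate 3 was the only library of its group with Cass4 (0.0609 CPM, others 0).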

How the results depend on the processing

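The count of 112 interaction calls became 382 with DESeq2 (150 positive, 232 negative), 5 with library sizes alone, 28 without ribosomal RNA in the library sizes, 405 within pool 1 and 41 to 250 when 1 library was left out. The replicate block by mouse number gave 149 calls, 95 of them among the 112; same-numbered libraries of different groups had a mean correlation of deviations of 0.000324, with 2 of 12 pairs over 0.1. The 407 calls of the Cre arm became 883 with DESeq2, 89 with library sizes alone, 129 without ribosomal RNA, 613 with limma-voom, 706 with the replicate block, 1589 within pool 1 and 165 to 598 without 1 library. The 4 of the NoCre arm became 28 with DESeq2, 2 with library sizes alone, with the replicate block and without NoCre WT replicates 4 and 5, and 2 to 6 without 1 library. Interaction calls also called in the Cre arm, 108, became 337 with DESeq2, 5 with library sizes alone, 27 without ribosomal RNA in the library sizes, 377 within pool 1 and 41 to 238 without 1 library. The 14 stress response calls became 1 with library sizes alone, 7 without ribosomal RNA and 8 to 17 without 1 library. The alternative without Cre WT replicates 3 and 4 was chosen after seeing the data. Why the counts moved was not tested. Fgf21, with 53 and 0 NoCre reads, was not called, while Gdf15, with 5 and 9, was; what depth adds to this was not tested.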
